A study of Mus musculus with 20 samples.

Results

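Wide Kap1 peaks are the stretches of the mouse genome on which binding of Kap1, taken from ChIP-Seq of liver, was called as an unbroken region of at least 500 bp. They were chosen by width alone, as end minus start in the deposited peak lists, on chromosomes 1 to 19. In young liver 1320 of 47084 Kap1 peaks on these chromosomes (2.80%) met the rule, and in old liver 803 of 21390 (3.75%). A further 89 young and 55 old peaks of this width lay on chromosomes X and Y and are not included. Because width selected the members, widths are given here as a description only.

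The study compared livers of young mice, aged 3 months, with livers of old mice, aged 21 months, of the C57BL/6 strain, and the labels name no treatment. Chromatin was immunoprecipitated with antibodies to Kap1, to the histone methyltransferase Setdb1 and to histone H3 acetylated at lysine 14 (H3K14ac). The livers of an age were merged before peaks were called, 2 per age for Kap1 and 3 per age for Setdb1 and H3K14ac, so each of the 6 lists stands for 1 pool. No spread between livers exists for any number below, no test between the ages was possible, and the lists carry no height or read count.

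Kap1, also called Trim28, does not bind DNA by itself. It is brought to its sites by the KRAB domains of C2H2 zinc finger proteins, and there it gathers Setdb1, which trimethylates lysine 9 of histone H3, and heterochromatin protein. It is best known for the silencing of transposable elements, for the protection of imprinted control regions and for broad binding over the exons that encode the fingers of zinc finger genes, which lie in clusters and arose by duplication.

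The sequences that follow show where wide peaks begin and what some of them cover. The first set holds left edges, chosen because several lists placed them at nearly the same base. Capitals mark bases inside the peaks of every list named. At the Sfi1 locus (chr11:3184106-3184318, GRCm38, plus strand) the lists are Kap1 and H3K14ac at both ages. At a locus with ribosomal RNA sequence (chr17:39842820-39843021, plus strand), where RefSeq places Rn18s-rs5, a pseudogene of the small ribosomal RNA, they are the same lists and young Setdb1. At the end of the Ugt1a gene cluster (chr1:88211374-88211568, plus strand) they are the Kap1 lists of both ages.
Sfi1 edge: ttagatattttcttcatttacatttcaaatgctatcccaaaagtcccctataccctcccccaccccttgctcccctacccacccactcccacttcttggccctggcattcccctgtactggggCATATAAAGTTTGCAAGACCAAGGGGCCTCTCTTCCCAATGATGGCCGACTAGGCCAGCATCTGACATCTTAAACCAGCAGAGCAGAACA
rRNA edge: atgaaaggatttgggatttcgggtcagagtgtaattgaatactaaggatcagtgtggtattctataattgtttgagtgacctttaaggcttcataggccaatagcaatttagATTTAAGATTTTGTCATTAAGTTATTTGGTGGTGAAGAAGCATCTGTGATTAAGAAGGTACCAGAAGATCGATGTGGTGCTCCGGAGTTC
Ugt1a edge: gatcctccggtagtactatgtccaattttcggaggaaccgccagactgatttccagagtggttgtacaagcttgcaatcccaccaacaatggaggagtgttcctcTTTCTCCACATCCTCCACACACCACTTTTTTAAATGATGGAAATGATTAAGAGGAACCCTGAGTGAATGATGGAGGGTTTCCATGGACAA

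A second set shows a zinc finger array, a stretch of the widest peak and an edge that fell on a round number. In the exon of Gm14412, a C2H2 zinc finger gene on the minus strand (chr2:177314579-177314830, printed 5′ to 3′ on that strand), capitals mark the codons of the linker that joins one finger to the next. A stretch of the gene Mroh2a that lies inside the widest young peak and its old partner (chr1:88259818-88260017, plus strand) is printed without capitals. At chr12:119999910-120000109 (plus strand) capitals mark the bases inside a young peak that began at base 120000000, the round boundary of an interval of 1 Mb.
Gm14412 linkers: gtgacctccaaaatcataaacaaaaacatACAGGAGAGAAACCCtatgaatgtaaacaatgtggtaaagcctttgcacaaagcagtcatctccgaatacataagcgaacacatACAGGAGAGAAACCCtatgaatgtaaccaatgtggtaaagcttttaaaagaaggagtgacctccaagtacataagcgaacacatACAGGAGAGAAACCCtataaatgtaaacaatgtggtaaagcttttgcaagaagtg
Mroh2a stretch: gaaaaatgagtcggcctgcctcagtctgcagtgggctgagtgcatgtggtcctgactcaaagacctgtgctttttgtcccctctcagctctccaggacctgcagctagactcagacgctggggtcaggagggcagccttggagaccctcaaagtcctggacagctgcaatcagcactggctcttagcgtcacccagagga
Mb boundary: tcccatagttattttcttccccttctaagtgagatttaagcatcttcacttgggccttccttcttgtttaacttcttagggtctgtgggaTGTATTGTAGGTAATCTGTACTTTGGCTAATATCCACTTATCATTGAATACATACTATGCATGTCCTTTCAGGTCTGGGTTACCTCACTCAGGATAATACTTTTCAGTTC

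Young wide peaks had a median width of 764 bp (quartiles 597 and 1124 bp, widest 17736 bp) and old wide peaks one of 805 bp (608 and 1184 bp, widest 15870 bp). They covered 1476 kb in young and 938 kb in old liver, which was 16.7% and 21.8% of all bases under Kap1 peaks. Most other Kap1 peaks had the shortest width in the list, 150 bp (88.5% of all young and 85.7% of all old peaks). The number of wide peaks in the old list was 60.8% of that in the young list, against 45.0% for narrower peaks, and for peaks of 2000 bp or more it was 70.6% (109 young, 77 old). This order turned when peaks within 1000 bp of each other were merged first, with 42.3% for wide and 47.0% for narrower peaks. Peaks of at least 10000 bp numbered 7 and 4. Just inside the threshold, at 500 to 505 bp, lay 19 young and 13 old peaks, of which 6 and 7 overlapped Kap1 at the other age. Just outside, at 494 to 499 bp, lay 23 and 14, of which 13 and 10 did. An H3K14ac peak overlapped 3 and 2 of the peaks just inside, and 11 and 8 of those just outside.

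**Figure D1:**
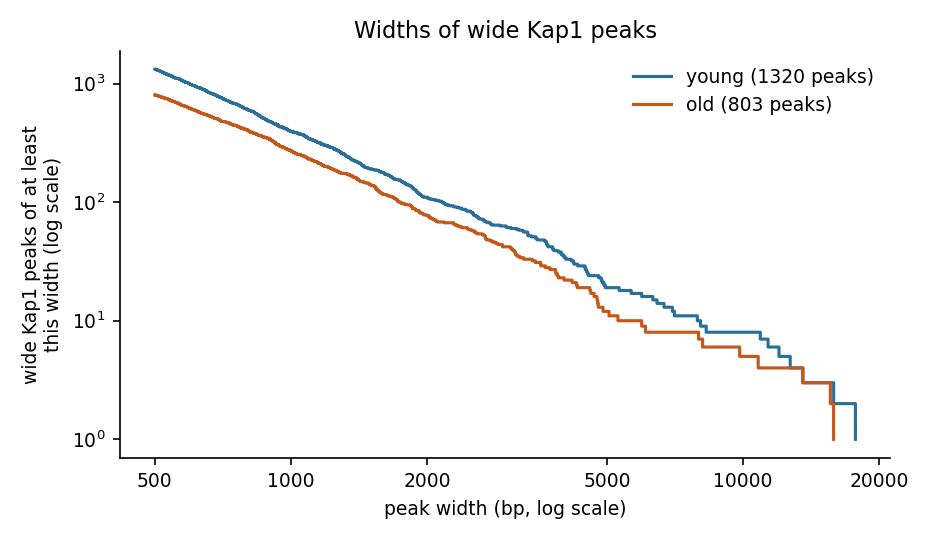
Number of wide Kap1 peaks (vertical axis, log scale) that were at least as wide as the value on the horizontal axis (bp, log scale), for the pooled young and the pooled old list. The young line starts at 1320 peaks and the old line at 803, and the old line ends at 15870 bp, below the young maximum of 17736 bp.

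Wide Kap1 peaks recurred at the other age more often than Kap1 peaks as a whole. An old Kap1 peak overlapped 830 of the 1320 young wide peaks (62.9%, 95% Wilson interval 60.2% to 65.4%), against 7.63% of all young Kap1 peaks. Among the old wide peaks, 654 of 803 (81.4%, 78.6% to 84.0%) had a young Kap1 peak, against 17.0% of all old Kap1 peaks. These intervals cover counting error only, and neighbouring peaks are not independent. A wider peak also has more bases to overlap with, so the central 150 bp of each peak were taken alone. On that measure 45.2% of young wide peaks met an old Kap1 peak, against 5.79% of narrower young peaks, and 68.9% of old wide peaks met a young one, against 14% of narrower old peaks. Kap1 peaks of 300 to 499 bp, just below the threshold, had shares nearer to those of wide peaks, 29.0% in young and 54.3% in old liver. The young list holds more peaks than the old, and the part of this in the higher share of old peaks was not tested.

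In most of these cases the partner was wide as well. A wide old peak overlapped 496 young wide peaks (37.6%), and only narrower old peaks overlapped 334 (25.3%). Seen from the old list, 506 wide peaks (63.0%) met a wide young peak and 148 (18.4%) only narrower ones. Over the 506 old peaks and their best wide young partner, the median widths were 926 bp in old and 1166 bp in young liver, and the young peak was the wider in 343 and the old in 160. Over the 496 young peaks and their best wide old partner, the young peak was the wider in 305 and the old in 188. The width of 384 of the 506 pairs lay within 2-fold of each other, and both edges agreed to within 100 bp in 95. Spearman's rho between young and old widths over those 506 pairs was 0.58, given as a description, since both widths had to reach 500 bp and pairs share regions.

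The widest peaks lay in a few places. In young liver the first of the 5 widest measured 17736 bp (chromosome 1, 88252068 to 88269803) over exons of Hjurp, the chaperone that loads the centromeric histone Cenpa, and of Mroh2a. Its old partner measured 15610 bp. The second, 15875 bp (chromosome 11, 3184196 to 3200070), lay over exons and the start of one transcript of Sfi1, which encodes a centrosome protein. The old peak there, 15870 bp from 3184206 to 3200075, was the widest of the old list. H3K14ac was called there as a single peak at each age, of 15837 bp (young) and 15852 bp (old), and all 4 left edges fell within the printed Sfi1 sequence. The third young peak, 13579 bp, covered Ugt1a1 and the last exons that all Ugt1a genes share, which encode glucuronosyltransferases that conjugate bilirubin and drugs in liver, and its old partner measured 13558 bp. The fourth, 12724 bp, lay over an exon of 1700095A21Rik and in an intron of Zfp981, a C2H2 zinc finger gene, and the fifth, 12017 bp, over Mup5, a gene for a major urinary protein that carries pheromones. At the former the old list had 3 peaks, of 8144, 1147 and 2935 bp, which covered most of the same bases with short gaps between them. The 12017 bp young peak over Mup5 also met 3 separate old peaks, the widest 4685 bp. The remaining 2 of the 5 widest old peaks, of 10810 and 9837 bp, lay over Mroh2a, the first overlapped by a young peak of 10925 bp and the second by young peaks of 7928 and 6984 bp.

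The stretch from the Ugt1a genes to Trpm8, a cold-sensing ion channel gene, held several of these peaks in a row. Over 99.4 kb of chromosome 1 (88211464 to 88310827), Kap1 peaks covered 85.3% of the bases in young liver, with 17 wide peaks, and 82.7% in old liver, with 18. H3K14ac peaks covered 82.2% and 84.0% of the same bases, as 63 and 53 peaks. Setdb1 covered 10.6% in young liver, as 3 peaks of which the widest was 4928 bp, and 4.12% in old liver, as 2 peaks of which the widest was 2769 bp. The 3 assays thus differed in extent there, with Kap1 and H3K14ac over nearly the same bases and Setdb1 over a small share of them.

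**Figure D2:**
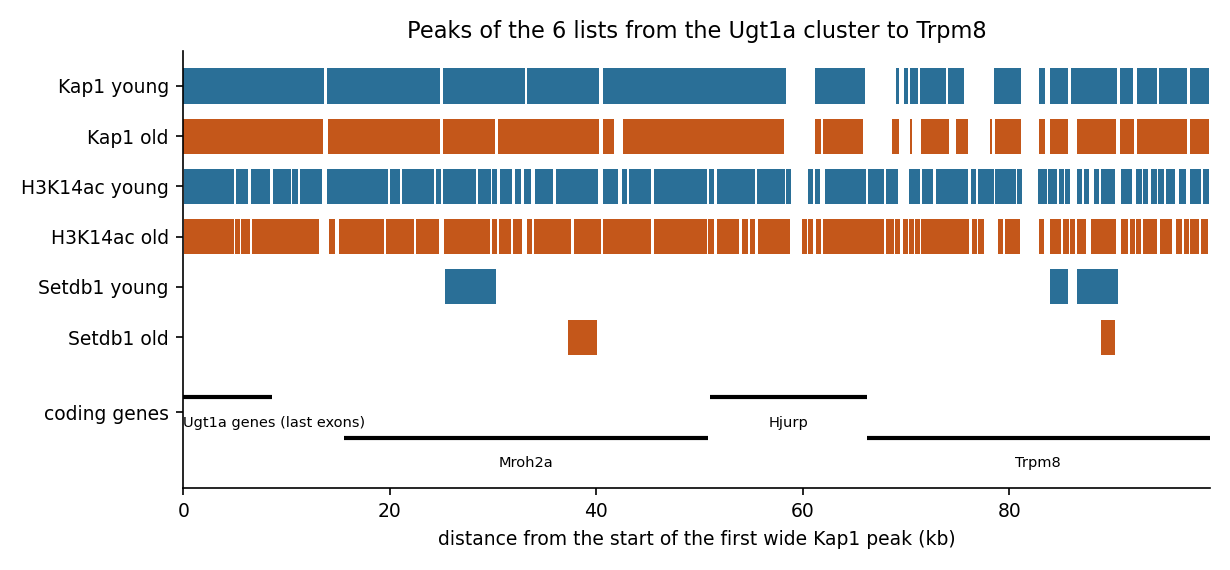
Peaks of the 6 lists (rows; bars are peaks to scale, blue for young and orange for old) over 99.4 kb of chromosome 1, with distance from the start of the first wide Kap1 peak in kb on the horizontal axis and coding genes as black lines. Kap1 and H3K14ac bars fill more than 80% of the stretch at both ages, whereas Setdb1 shows 3 young and 2 old bars.

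At Zfp992 and Zfp981, a pair of zinc finger genes on chromosome 4 (146426467 to 146541315, 115 kb), 28 wide young and 26 wide old Kap1 peaks were called. All Kap1 peaks together covered 49.1% and 45.6% of these bases and H3K14ac 41.6% and 38.6%. Setdb1 covered 1.84% and 0.624%, as 2 young peaks and 1 old peak. The Mup5 stretch of the same chromosome (61801388 to 61929396, 128 kb) held 21 and 18 wide peaks, with Kap1 over 45.2% and 34.5% of the bases and H3K14ac over 27.1% and 24.6%. No Setdb1 peak was called there at either age.

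**Figure D3:**
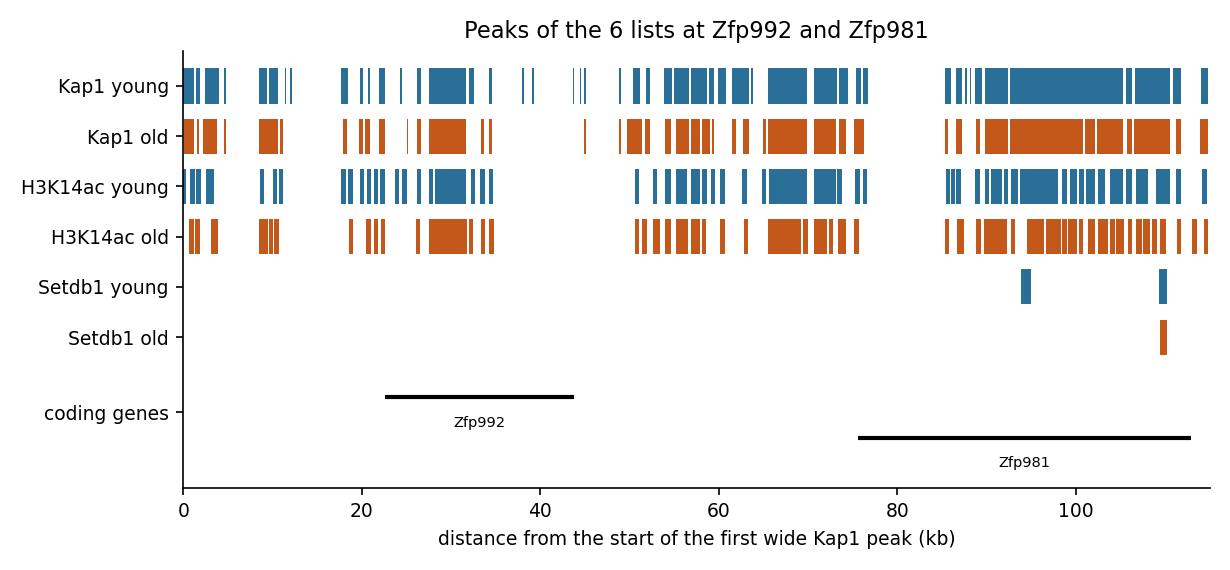
Peaks of the 6 lists (rows; bars are peaks to scale, blue for young and orange for old) over 115 kb of chromosome 4, with distance from the start of the first wide Kap1 peak in kb on the horizontal axis and coding genes as black lines. The wide Kap1 peaks lie before, within and between Zfp992 and Zfp981 rather than over the genes alone, and the H3K14ac bars fall in the same blocks.

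H3K14ac was called at nearly as many wide Kap1 peaks as not. A peak of the same age overlapped 598 young wide peaks (45.3%, 42.6% to 48.0%), against 4.33% of all young Kap1 peaks, and 379 old wide peaks (47.2%, 43.8% to 50.7%), against 5.16% of all old Kap1 peaks. At the central 150 bp the shares were 34.8% and 37.1%, against 3.03% and 3.35% for narrower Kap1 peaks. The share was higher in each wider class of Kap1 peak, from 1.96% of the 150 bp peaks to 84.4% of peaks of 2000 bp or more in young liver, and from 1.93% to 87.0% in old liver. The 2 ages lay close together in every class. H3K14ac peaks are themselves at least 500 bp wide as called, and 97.6% of young and 97.9% of old ones have exactly that width. Of the 461 young H3K14ac peaks over 500 bp, 266 (57.7%) lay on a wide Kap1 peak, against 3.20% of those at 500 bp, and in old liver 185 of 430 (43.0%) did, against 1.96%. So the wide regions of one assay often coincided with the wide regions of the other.

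Setdb1 was less frequent at wide Kap1 peaks than H3K14ac. It overlapped 132 young wide peaks (10%, 8.50% to 11.7%), against 2.19% of all young Kap1 peaks, and 40 old wide peaks (4.98%, 3.68% to 6.71%), against 1.18% of all old Kap1 peaks. At the central 150 bp the shares were 5.98% and 2.86%, against 1.92% and 0.991% for narrower peaks. Kap1 peaks of 300 to 499 bp, just below the threshold, had central shares of 3.35% and 2.15%. In old liver the Wilson intervals of these peaks (1.36% to 3.37%) and of wide peaks (1.92% to 4.26%) overlapped. The old Setdb1 list held 13678 peaks on chromosomes 1 to 19 and the young list 49271. Each set was also read against the Setdb1 list of the other age. The young wide peaks then had 3.48%, against 0.924% of all young Kap1 peaks. The old wide peaks had 11.2%, against 2.63% of all old Kap1 peaks. So both sets of wide peaks had the lower share with the old Setdb1 list, and the part of the list's length was not tested. For H3K14ac the lists were of like size (18885 and 20120). The old H3K14ac list overlapped 40.9% of young wide peaks, against 3.54% of all young Kap1 peaks. The young H3K14ac list overlapped 52.6% of old wide peaks, against 6.52% of all old Kap1 peaks. Of the Setdb1 peaks over 500 bp, 69 of 114 in young liver (60.5%) and 27 of 40 in old liver (67.5%) lay on a wide Kap1 peak of that age, against 0.0626% and 0.0149% of the Setdb1 peaks at their commonest width of 200 bp. Neither H3K14ac nor Setdb1 was called at 675 young (51.1%) and 413 old (51.4%) wide peaks, against 93.8% and 93.9% of all Kap1 peaks.

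**Figure D4:**
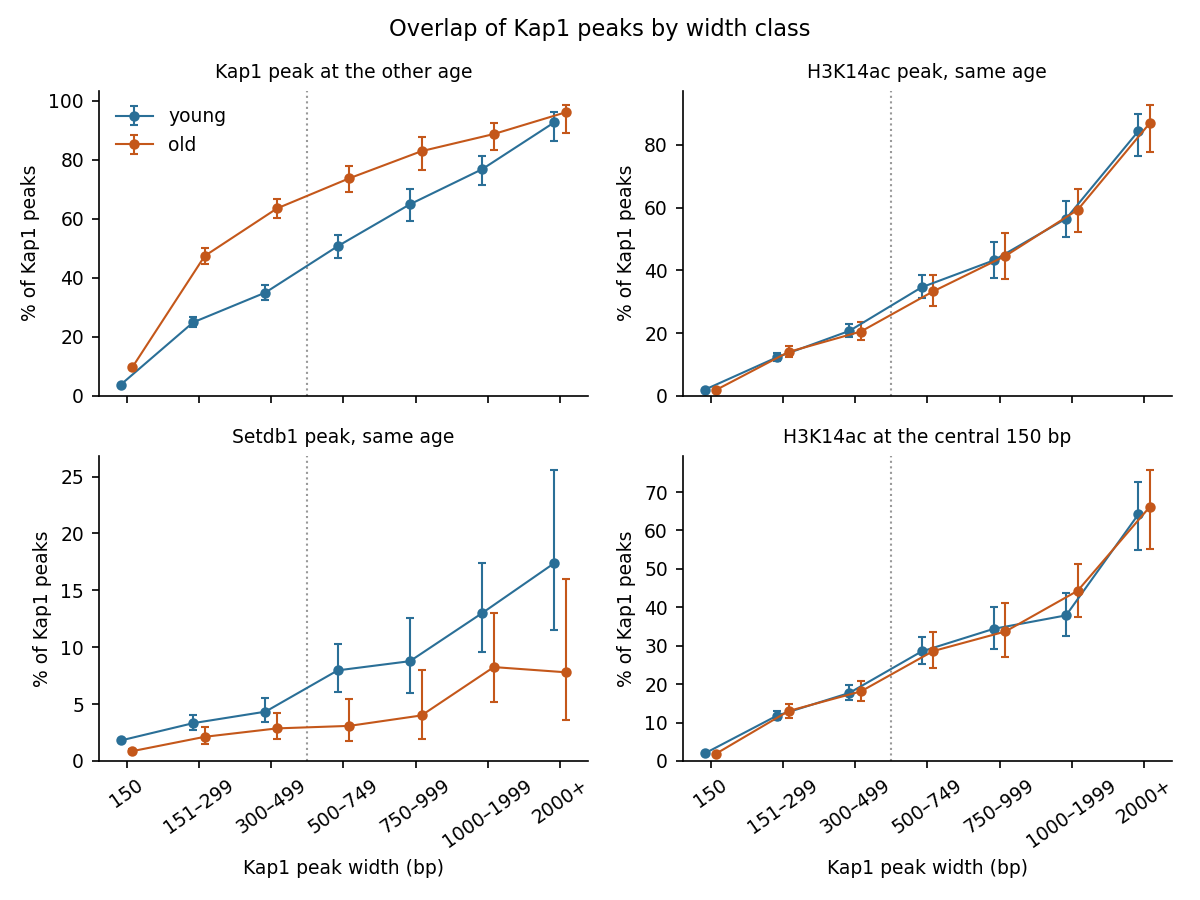
Share of Kap1 peaks (%, with 95% Wilson intervals) that overlapped a Kap1 peak of the other age, an H3K14ac peak or a Setdb1 peak of the same age, and an H3K14ac peak at the central 150 bp, by width class of the Kap1 peak (bp). The dotted line marks 500 bp, right of which peaks count as wide; the H3K14ac shares of the 2 ages nearly coincide, and they end at 84.4% and 87.0%.

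Both Setdb1 and H3K14ac were called at 85 young (6.44%) and 29 old (3.61%) wide peaks, against 0.333% and 0.248% of all Kap1 peaks. The 5 widest young ones were the 12724 bp peak in Zfp981, an intergenic peak of 8295 bp on chromosome 16 (3264816 to 3273110), a 7928 bp peak over Mroh2a, the ribosomal RNA locus at 5971 bp and a 4858 bp peak in an intron of Gm49692 on chromosome 12 (20229561 to 20234418). In old liver they were the 9837 bp peak over Mroh2a, one of 4022 bp over an exon of Zfp981, one of 3857 bp in an intron of Trpm8, one of 3744 bp on chromosome 16 (3241067 to 3244810) and one of 3136 bp over Gm14496, which began at base 182000000 of chromosome 2. At the ribosomal RNA locus (chromosome 17) the width was 5971 bp in both Kap1 lists, 5956 and 5999 bp in young and old H3K14ac, and 5972 bp in young Setdb1, and no old Setdb1 peak overlapped it.

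A peak of each of the other 5 lists met 22 young (1.67%) and 19 old (2.37%) wide peaks, a set chosen after its values were seen. Among all Kap1 peaks 35 young (0.0743%) and 31 old (0.145%) did so. In 4 of these loci at each age the peaks of all 6 lists began within 100 bp of each other and ended so too. Among them were chromosome 9 at 124256293 to 124258137 with widths of 1826 to 1898 bp over the lists, chromosome 13 at 3372952 to 3373678 with 660 to 727 bp, and an intron of Aida on chromosome 1 with 602 to 610 bp. The central 500 bp of all 4 had no further copy in the assembly. The part of the antibodies in peaks of such equal outline was not tested.

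Wide peaks lay at gene starts more often than Kap1 peaks in general. Within 1 kb of an annotated transcription start were 199 young wide peaks (15.1%, 13.2% to 17.1%), against 6.93% of all young Kap1 peaks, and 120 old ones (14.9%, 12.6% to 17.6%), against 6.45%. At the central 150 bp the shares were 10.4% and 11.3%, against 6.64% and 6.08% for narrower peaks. Kap1 peaks of 300 to 499 bp, just below the threshold, had shares of 10.2% and 10.5% over their whole width. Those lay near the central shares of wide peaks. Away from start sites, 11.5% of all young wide peaks touched an exon, 25.6% lay in an intron and 47.8% between genes, and in old liver the shares were 12%, 28.1% and 45.0%. Among all Kap1 peaks they were 5.67%, 31.6% and 55.8% in young and 5.90%, 31.0% and 56.6% in old liver. A wider peak touches more exons by its length, and at the central 150 bp the exon shares were 7.20% and 7.60% (Wilson intervals 5.92% to 8.72% and 5.96% to 9.64%), against 5.45% and 5.59% for narrower peaks. The GC content of wide peaks had a median of 43.8% in young and of 43.3% in old liver, below the 46.9% and 46.7% of all Kap1 peaks. Soft-masked repeats made up a median of 25.2% and 27.3% of a wide peak, against 16.0% and 17.7% of any Kap1 peak, while peaks masked over more than 50% of their bases were about as frequent (25.2% of wide and 25.5% of all young peaks, 27.1% and 28.1% in old liver).

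Starts of protein-coding genes lay within 1 kb of 94 young (7.12%) and 65 old (8.09%) wide peaks, against 2.91% and 2.63% of all Kap1 peaks. Beyond the Sfi1, Ugt1a and Mup5 peaks already described, the 5 widest included young peaks at Mroh2a (10925 bp) and at Nlrp9b (6319 bp, chromosome 7, 20004243 to 20010561), a gene of the NLRP family. This young peak met 3 old Kap1 peaks, the widest 1856 bp. In old liver the others were Mroh2a at 10810 bp and Trpm8 at 4904 bp, where the widest young peak that overlapped it was 2729 bp.

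Exons of C2H2 zinc finger genes carried 26 young wide peaks (1.97%, 1.35% to 2.87%), against 0.306% of all young Kap1 peaks, and 21 old ones (2.62%, 1.72% to 3.96%), against 0.379%. At the central 150 bp the shares were 1.06% and 1.62%, against 0.253% and 0.282% for narrower peaks, and with zinc finger genes taken by symbol 1.06% and 1.37% of wide peaks lay on an exon. The 26 young peaks fell on 15 genes and the 21 old peaks on 12, so several shared a gene. In young liver the 5 widest lay on Gm14401 (4217 bp), Zfp981 (3967 bp), Gm14443 (3335 bp) and Gm14412 (2673 and 2545 bp). In old liver they lay on Zfp981 (4022 bp), Zfp982 (1929 bp), Gm14412 (1799 and 1541 bp) and Gm14443 (1673 bp). An H3K14ac peak overlapped 16 of the 26 young and 15 of the 21 old, a Setdb1 peak 2 and 2, and a Kap1 peak of the other age 19 and 18. Over all wide peaks the shares were 45.3% and 47.2% for H3K14ac, 10% and 4.98% for Setdb1, and 62.9% and 81.4% for Kap1, and these counts were too small to read a difference from them. By gene rather than by peak, 24 of 570 C2H2 zinc finger genes (4.21%) had a wide young peak in the gene or within 5 kb, and 23 (4.04%) a wide old peak, against 0.925% and 0.650% of all 51229 genes. For Kap1 peaks of any width these shares were 43.2% and 27.9%, against 26.8% and 14.5%. The 51229 genes include genes without coding sequence, and a longer gene has more bases for a peak to meet. Gene type and length were not matched, here or for the other gene lists. Of the 492 genes that are zinc finger genes by symbol, 16 had a wide peak at each age.

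Most wide peaks on exons of zinc finger genes, 19 of the 26 young and 17 of the 21 old, held no match to the codons of the linker between fingers. Gm14412 was chosen for display because it held the most. Its 2673 bp young peak held 15 matches to the linker codons, of which 3 are printed, and 13 of the 14 gaps between matches measured 84 bp. The old peak of 1541 bp held 10. Matches were sought as ACNGGNGANAANCCN on both strands. In the central 500 bp of wide peaks, 13 young (0.985%) and 9 old (1.12%) peaks had one, as did 0.116% of all 500 bp tiles of chromosomes 1 to 19 without unknown bases. The 6 letters TGCCGC, the methylated motif read by the imprinting factor Zfp57, were found on either strand in 3.79% of young and 3.36% of old wide peaks, against 3.05% of the tiles. The share of the tiles lay within the Wilson intervals of both ages (2.88% to 4.96% and 2.32% to 4.85%).

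Wide peaks in or within 5 kb of a gene were rare in general, at 0.925% of all genes in young and 0.650% in old liver, whereas a Kap1 peak of any width lay at 26.8% and 14.5%, and the counts of the lists are read against these shares. Of 55 imprinted genes and control regions only Copg2 (1.82%), an intron of which held a young peak of 569 bp and an old one of 567 bp (chromosome 6, 30804544 to 30805112 in young), had one, while 23 had a young (41.8%) and 11 an old (20%) Kap1 peak of any width. None of 22 genes of Kap1 and its partners had a wide peak at either age, a number too small to be told from the share of all genes. Copg2 is the neighbour of the imprinted gene Mest, and H3K14ac peaks of 500 bp lay on its peak at both ages.

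Among genes of liver function, wide peaks lay at a few loci of phase II enzyme and major urinary protein genes. In the list of 74 phase II enzyme genes, 9 had a wide young peak (12.2%) and 10 a wide old peak (13.5%), against 0.925% and 0.650% of all genes. The 9 genes were Ugt1a genes, which share the one peak over their last exons, and the further old gene was Ugt3a1 with a peak of 616 bp. Of 22 major urinary protein genes Mup5 and Mup6 (9.09%) had wide peaks in the gene or within 5 kb at both ages. The widest old peak counted for Mup6, of 1487 bp, lay between genes (chromosome 4, 60011906 to 60013392). A Kap1 peak of any width lay at 47.3% and 28.4% of the phase II enzyme genes and at 13.6% of the major urinary protein genes at each age, against 26.8% and 14.5% of all genes. None of 131 cytochrome P450 genes, which oxidise drugs and steroids, had a wide peak, although 45 in young (34.4%) and 31 in old liver (23.7%) had a Kap1 peak of some width, against 26.8% and 14.5% of all genes. No wide peak was found either at the 37 apolipoprotein genes (27.0% and 10.8% with a Kap1 peak of any width), the 28 serpin a genes (10.7% and 3.57%), the 75 ribosomal protein genes (6.67% and 2.67%) and the 43 Hox genes (6 and 4 genes), of which the last 3 lay below the shares of all genes. None of the 78 histone genes had a wide peak, and 0 and 3 had a Kap1 peak of any width. At the share of all genes each of these lists would hold about 1 such gene or fewer, so the zeros lie near the background.

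Vomeronasal receptor genes and pseudogenes, which serve pheromone sensing, had a wide peak at 23 of 561 loci (4.10%) in young and 11 (1.96%) in old liver, led by Vmn2r-ps20 with peaks of 4553 and 4302 bp. Olfactory receptor genes had one at 2 of 1399 loci (0.143%) at each age, against 0.925% and 0.650% of all genes, although 579 (41.4%) and 301 (21.5%) of them had a Kap1 peak of some width, against 26.8% and 14.5%. Of the vomeronasal loci, 289 (51.5%) in young and 191 (34.0%) in old liver had a Kap1 peak of some width. None of the 58 clustered protocadherin genes, which give neurons their identity at the surface, had a wide peak. So short a list would hold fewer than 1 at the share of all genes. A Kap1 peak of any width lay at 53 of them in young (91.4%) and 15 in old liver (25.9%). These are counts of genes, and 1 peak can count for several genes that overlap or lie within 5 kb of it. The number of peaks behind them was not counted.

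In place along the genome, the wide peaks were far from even. Of 2473 intervals of 1 Mb on chromosomes 1 to 19, 116 held a young and 103 an old wide peak, 95 held both, and the fullest 16 intervals in young and 15 in old liver together held 50% of the wide peaks. The 95 shared intervals contained 96.4% of the young and 98.4% of the old wide peaks. Chromosome 4 had the most at both ages, with 294 (22.3%) and 219 (27.3%). Chromosome 11 had 3 and 3, among them the Sfi1 peak. When wide peaks within 50 kb were joined, 79.8% of young and 73.5% of old members fell into clusters of at least 5.

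The richest young intervals were chromosome 4 from 156000001 to 156508116, with 59 young and 33 old wide peaks around Agrn, Noc2l and Samd11, chromosome 4 from 147000001 to 148000000, with 54 and 42 around Zfp982 and Zfp985, and chromosome 8 from 129000001 to 129401213, with 54 and 39 around Ccdc7a and Ccdc7b. In old liver the second of these came first with 42, followed by chromosome 4 from 146000001 to 147000000 (41, with 45 in young) and chromosome 8 from 20000001 to 21000000 (40, with 52 in young), which holds beta-defensin genes. Young liver had the higher count in 84 of the 124 intervals with any wide peak and old liver in 19.

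**Figure D5:**
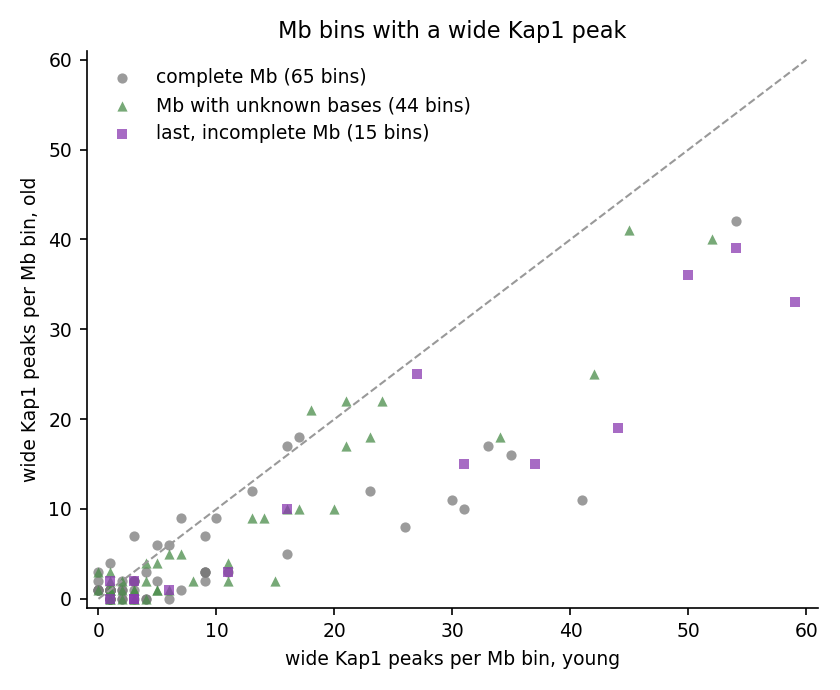
Wide Kap1 peaks per interval of 1 Mb in young (horizontal axis) and old (vertical axis) liver, 1 point per interval with at least 1 wide peak, by whether the interval was complete, contained unknown bases or was the incomplete last one of a chromosome; the dashed line marks equal counts. Most points lie below the line, and the last intervals of chromosomes 4, 8 and 19 reach 59, 54 and 50 young peaks.

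Position relative to the intervals moved with these counts. The last, incomplete intervals of the 19 chromosomes hold 0.281% of the known sequence, yet 346 young (26.2%) and 200 old (24.9%) wide peaks, against 4.18% and 5.55% of all Kap1 peaks, 3.61% and 2.79% of H3K14ac peaks and 0.406% and 0.490% of Setdb1 peaks. Kap1 peaks of 300 to 499 bp, just below the threshold, had like shares there (21.4% and 26.4%), and peaks of 2000 bp or more had lower ones (11.9% and 10.4%). That amounts to 51.4 young and 29.7 old wide peaks per Mb of known sequence, against 0.221 and 0.124 in complete intervals without unknown bases. Intervals that contain unknown bases held another 36.1% and 40.2% of wide peaks in 5.68% of the known sequence, against 15.0% and 16.4% of all Kap1 peaks and 14.5% and 12.6% of H3K14ac peaks. Chromosome 19 had all of its 50 young and 36 old wide peaks in its last interval. PeakSeq, which made the lists, sets its thresholds in intervals along a chromosome from the bases to which reads can be mapped. A start exactly at a boundary of 1 Mb was found for 3 young and 2 old wide peaks, and for 3 of 45764 narrower young and 0 of 20587 narrower old peaks. The printed one on chromosome 12 was among the wide ones. Other peaks ran across such a boundary, 2 young and 1 old wide ones and 7 young and 4 old narrower ones. The part of these thresholds in the peaks was not tested. In complete intervals with every base known, 497 young and 280 old wide peaks remained. H3K14ac was at 45.5% and 47.1% of them, against 2.75% and 3.29% of all Kap1 peaks there. Kap1 of the other age was at 62% and 77.9%, against 5.09% and 11.8% of all Kap1 peaks there.

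Sequence repeated elsewhere in the genome was more frequent under wide peaks than under Kap1 peaks as a whole, though not than under peaks just below the threshold. The central 150 bp had a further copy, of at least 90% of the length at 95% identity, for 220 young wide peaks (16.7%, 14.8% to 18.8%), against 5.68% of all young Kap1 peaks, and for 135 old ones (16.8%, 14.4% to 19.6%), against 7.20%. At peaks of 300 to 499 bp it was 20.1% and 21.0%, and at those of 150 bp 4.04% and 4.96%. For the central 500 bp the shares were 11.2% and 10.5%, and for 118 of the 148 young and 68 of the 84 old peaks with a copy at least one lay within 1 Mb. In the last intervals of chromosomes the share was lower, at 3.47% and 2.50%. Since the authors kept uniquely aligned reads, reads from exact copies would be absent, and the effect on the width of these peaks was not tested.

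Wide peaks seen at 1 age only were narrower and usually had a neighbour. In young liver 490 wide peaks (37.1%) met no old Kap1 peak. Their median width was 676 bp, against 854 bp for those with a partner, and an old Kap1 peak lay within 10 kb of 469 of them (95.7%), against 35.4% of all young peaks without a partner. In old liver 149 wide peaks (18.6%) met no young Kap1 peak, with a median width of 666 bp and a young peak within 10 kb for 143 (96.0%), against 52.5% of all old peaks without a partner. An H3K14ac peak of the same age overlapped 32.7% of the young and 29.5% of the old ones, below the 52.8% and 51.2% of wide peaks with a partner, though above the 2.74% and 2.19% of all Kap1 peaks without one.

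The widest peak called in young liver alone was 5323 bp on chromosome 12 (120000000 to 120005322) near Tmem196, the one with a start at the Mb boundary, and it met no H3K14ac or Setdb1 peak. Next came 4527 bp over Mup6 (chromosome 4, 60001511 to 60006037), with a young Setdb1 peak of 1785 bp and an old H3K14ac peak of 623 bp, then 3794 bp between genes on chromosome 5 (11984577 to 11988370), 2785 bp over Nlrp9b and 2501 bp over Ptdss1, which encodes a phosphatidylserine synthase. In old liver the widest of this kind were 2453 bp on chromosome 5 (11980078 to 11982530), 2091 bp in an intron of Dydc1, 2028 and 1884 bp on chromosome 4 at 42969399 and 42888908, and 1757 bp in an intron of A630089N07Rik. The chromosome 5 peaks of the 2 ages were neighbours in one cluster, and 3 of the 5 old peaks lay in the clusters on chromosomes 4 and 16 that held wide peaks of both ages.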

How the data were processed

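Kap1, Setdb1 and H3K14ac ChIP-Seq peaks of young and old mouse liver were used as 6 deposited BED lists. Per the study's methods, the authors mapped reads with BWA to mm10 (GRCm38), discarded duplicates (Picard) and reads without a unique place, pooled livers by age and ran PeakSeq with input as control, at a q-value threshold set for each antibody. BWA and mm10 are also named in the submitters' processing notes. The deposited columns hold positions only, converted here to 1-based starts, so the depth is unknown. Samples were grouped by the labelled mark and age.

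Overlap meant at least 1 bp, and the code was tested on simulated data against bedtools 2.31.1. Shares carry Wilson intervals. Start sites, exons and genes came from GENCODE M21 (basic), C2H2 genes from at least 3 finger patterns in the translated coding sequence (581 of 22514 genes), and printed sequences from the RefSeq assembly of GRCm38. Copies were sought with minimap2 2.31-r1302, with up to 50 alignments kept, on the chromosomes and C57BL/6J contigs. No test was run, because each mark and age had 1 pooled list. Alternatives were other width thresholds, merging, overlap rules and left-out regions. Figures used matplotlib 3.10.9 in Python 3.11.15.

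Peaks were named by fixed rules, such as the 5 widest per age, per gene class and per combination of marks. The members, gene lists and rules were chosen with earlier results of these data known. The H3K9me3, Hdac3 and sequential ChIP data were not used here.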

Additional observations from a re-analysis of the deposited data

How the results depend on the processing

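Of 68 alternative values, 26 stayed within the main value's 95% Wilson interval or, for counts, within 1.5 times it, and 42 moved. Without the last interval of each chromosome, and in complete intervals, the shares with Kap1 of the other age, H3K14ac, Setdb1, start sites and zinc finger exons stayed above those of all Kap1 peaks there at both ages. For young and old in turn, the number of wide peaks was 2752 and 1641 from 300 bp, 394 and 271 from 1000 bp, 3707 and 1569 when peaks within 1000 bp were merged first, and 497 and 280 in complete intervals of 1 Mb with every base known. At the central 150 bp the shares were 45.2% and 68.9% for Kap1 of the other age, 34.8% and 37.1% for H3K14ac, 5.98% and 2.86% for Setdb1, 10.4% and 11.3% for start sites, 1.06% and 1.62% for zinc finger exons, and, added after seeing the data, 7.20% and 7.60% for exons away from start sites. With at least 50% of the peak covered they were 37.2% and 62.4% for Kap1, 29.8% and 31.5% for H3K14ac, and 3.79% and 2.62% for Setdb1. Among peaks of 1000 bp or more they were 81.2% and 90.8% for Kap1, 64.2% and 67.2% for H3K14ac, 14.2% and 8.12% for Setdb1, and, in young liver, 18.8% for start sites. Without chromosome 4 Kap1 of the other age stood at 59.6% in young liver, and H3K14ac at 39.9% and 37.3%. Zinc finger genes taken by symbol gave exon shares of 1.06% and 1.37%. Leaving out the last interval of each chromosome, an alternative added after seeing the data like that of complete intervals, gave 51.2% and 54.7% for H3K14ac. In complete intervals old liver had 77.9% for Kap1 of the other age and 17.9% for start sites. Narrower rules of overlap lower the shares by construction. At the central 150 bp, the H3K14ac share was 28.5% (young) and 28.6% (old) for peaks of 500 to 749 bp. For peaks of 2000 bp or more it was 64.2% and 66.2%. The Setdb1 share there went from 4.84% to 9.17% in young liver and from 2.52% to 0% in old liver. The causes of these and the other changes were not tested.

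No paired analysis was possible because the livers of an age were pooled into 1 list per mark before peaks were called, and for the same reason leaving out a liver was impossible. The lists hold no heights or depths, so how near to its threshold a peak missing at one age lay is unknown.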
